A study of Homo sapiens with 6 samples.

Results

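The clustered protocadherins are cell surface proteins of the cadherin superfamily, encoded in 3 gene clusters named alpha, beta and gamma that lie in a row on chromosome 5q31. Their members were taken as all gene symbols that start with PCDHA, PCDHB, PCDHGA, PCDHGB or PCDHGC. This gave 57 of the 24462 symbols in the count files: 15 in the alpha cluster, 19 in the beta cluster and 23 in the gamma cluster. The members were read in 6 bulk RNA libraries, 3 of 1CT and 3 of 1CT-A. 1CT is an immortalized human colon epithelial cell line (HCEC, labelled WT and described as epithelial progenitor cells), and 1CT-A is the same line depleted of wild type APC (labelled APC KD). Both lines were untreated and grew in the same medium with growth factors and a low serum content, and each is a single line, so that a difference between them may also come from other changes between the lines. How 1CT-A was depleted of APC, and whether the 3 libraries of a line are separate cultures, is not given in the sources used here. The p-values below therefore measure only the spread between libraries, which may be technical.

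Each alpha and gamma gene begins with a large exon of its own, the variable exon, which encodes the extracellular cadherin repeats, the membrane span and a part of the cytoplasmic tail. This exon has its own promoter and is spliced to short exons shared by the whole cluster, which encode a common end of the tail. Beta genes have a single coding exon and no shared tail. In neurons, where the clusters are best known, each cell uses a few members, and the proteins bind like to like between cells, which lets a neuron tell its own branches from those of others. The promoters are chosen with the help of CTCF and cohesin, which join a promoter to a distant enhancer, and unused promoters carry DNA methylation. The members PCDHAC1, PCDHAC2, PCDHGC3, PCDHGC4 and PCDHGC5 form the C type and are less subject to this random choice.

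In the GENCODE release 44 annotation of GRCh38 the clusters span 226 kb (alpha, chr5:140786136-141012347), 198 kb (beta, chr5:141051374-141249365) and 182 kb (gamma, chr5:141330514-141512977), all on the plus strand. The files were made on hg19, so these positions describe the annotation and not the counting. All 15 alpha genes have a transcript that ends in the same 3 exons, of 59, 89 and 2721 bases. The 22 coding gamma genes end in another set of 3 exons, of 59, 89 and 2029 bases, whose last exon is chr5:141510947-141512975. The joined shared sequence was identical in all 15 alpha genes (2869 bases) and in all 22 gamma genes (2177 bases), and it made up 44.8% to 45.9% of a gamma transcript. The libraries are of the QuantSeq 3′ type, which reads the ends of polyadenylated transcripts. A read from the last exon of such a transcript cannot be told apart between the members of a cluster, and how the counting treated it is not given in the sources used here. Every alpha and gamma gene is also annotated with a transcript that ends before the shared exons.

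The junction between the variable and the shared exons shows which bases name a member and which do not. Below are the last 40 bases of the variable exon in lower case and the first shared exon (59 bases) in capitals, from GENCODE transcripts, for the gamma members with the most counts and for PCDHGC5, which had none.
PCDHGC3: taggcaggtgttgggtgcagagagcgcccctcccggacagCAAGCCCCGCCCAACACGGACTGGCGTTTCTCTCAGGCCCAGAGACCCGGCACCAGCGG
PCDHGA8: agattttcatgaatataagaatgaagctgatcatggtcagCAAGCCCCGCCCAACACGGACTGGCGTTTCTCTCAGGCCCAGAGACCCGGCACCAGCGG
PCDHGA12: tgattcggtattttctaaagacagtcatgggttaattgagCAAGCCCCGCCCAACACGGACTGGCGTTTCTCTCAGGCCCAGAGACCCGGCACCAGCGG
PCDHGB7: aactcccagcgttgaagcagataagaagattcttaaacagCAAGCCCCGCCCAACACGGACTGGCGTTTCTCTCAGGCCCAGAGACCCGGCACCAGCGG
PCDHGC5: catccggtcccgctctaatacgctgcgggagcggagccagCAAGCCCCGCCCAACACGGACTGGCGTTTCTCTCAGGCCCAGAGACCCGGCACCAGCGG
The capitals were the same in all 5. Of the 40 bases before them, PCDHGA8 shared 11 with PCDHGC3 position by position, PCDHGA12 shared 14, PCDHGB7 shared 16 and PCDHGC5 shared 10. The alpha cluster has its own first shared exon, shown here for PCDHA8, the alpha member with the most counts, and for the C-type member PCDHAC2.
PCDHA8: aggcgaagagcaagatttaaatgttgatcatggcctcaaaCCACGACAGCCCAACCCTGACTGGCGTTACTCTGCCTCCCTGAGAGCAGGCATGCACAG
PCDHAC2: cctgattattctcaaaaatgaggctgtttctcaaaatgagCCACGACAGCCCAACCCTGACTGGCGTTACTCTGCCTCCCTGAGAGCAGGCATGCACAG

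Many members were not seen. Of the 57 members, 28 (49.1%) had no count in any of the 6 libraries, against 5293 of all symbols (21.6%). These 28 were 12 of 15 alpha, 6 of 19 beta and 10 of 23 gamma members. Among them were 4 of the 5 C-type members, PCDHAC1, PCDHAC2, PCDHGC4 and PCDHGC5. A count of 0 allows up to 3 counts, which is 0.355 to 0.385 in 1CT and 0.238 to 0.269 in 1CT-A in the unit CPM, the count divided by the library total and put on the usual scale. Another 21 members had at least 1 count but never more than 3 in a library. Only 8 members had more than 3 counts in any library, namely PCDHB2 and PCDHB14 of the beta cluster and PCDHGA8, PCDHGA10, PCDHGA12, PCDHGB6, PCDHGB7 and PCDHGC3 of the gamma cluster. Floors and intervals given here cover counting error only, since the reads carry no molecular identifiers that could be used here. For alpha and gamma members they bound only the reads assigned to a symbol. Transcripts that end in the shared exons may be missed, as the counting of those reads is not known, so a 0 does not show absence.

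The libraries held 7788679 to 8452258 counts in 1CT and 11158108 to 12602988 in 1CT-A, so that 1CT-A was deeper by a factor of 1.43. More members were nevertheless seen in 1CT, with 16, 21 and 18 members in its 3 libraries against 12, 9 and 9 in 1CT-A. Brought to the smallest total by calculation, the expected numbers were 15.4, 20.4 and 18.0 against 9.77, 7.74 and 6.98. Of the 29 members with a count, 11 had counts only in 1CT libraries, 2 (PCDHB18P and PCDHGB1, with 1 count each) only in 1CT-A libraries and 16 in both. APC, the targeted gene, had 417, 363 and 363 counts in 1CT and 351, 342 and 433 in 1CT-A, a log2 fold change of -0.58 (SE 0.09, edgeR adjusted p = 1.8e-04), so the level was lower in the line labelled APC KD but APC was still counted there.

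**Figure D1:**
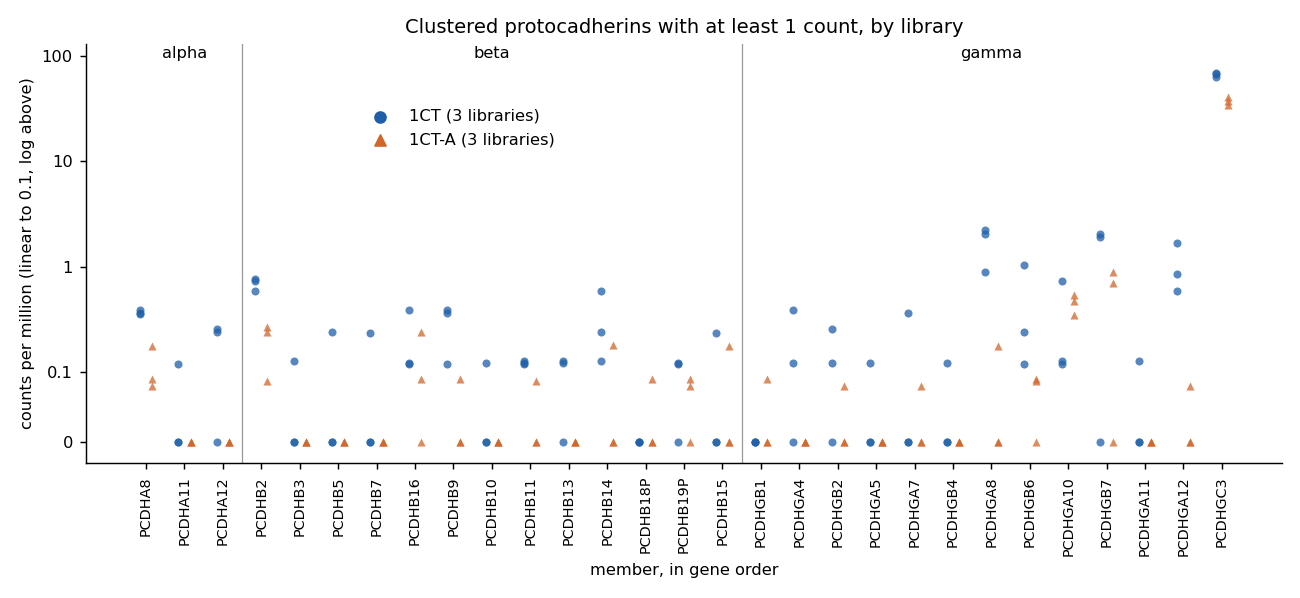
Level in CPM of the 29 members with at least 1 count, in gene order, on an axis that is linear to 0.1 and logarithmic above; each point is a library of 1CT (circles) or 1CT-A (triangles). PCDHGC3, with 1CT libraries from 63.8 to 69.0 and 1CT-A libraries from 34.1 to 40.5 CPM, stands above all other members, whose libraries lie under 3 CPM.

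PCDHGC3, a C-type member, carried nearly all of the counts. It had 583, 556 and 497 counts in 1CT and 417, 389 and 510 in 1CT-A. Scaled to the library totals this was 69.0, 67.1 and 63.8 CPM against 37.4, 34.1 and 40.5 CPM. Every 1CT library was above every 1CT-A library, and the spread within a line was small beside the gap between the lines. The mean level was 66.6 ± 2.62 CPM in 1CT and 37.3 ± 3.16 CPM in 1CT-A (SD, n = 3 libraries each). In 1CT-A the log2 fold change relative to 1CT was -0.87 (SE 0.09), and edgeR's quasi-likelihood test gave an adjusted p of 3.9e-06 (Benjamini-Hochberg, 12514 genes). In fold terms the level was 1.78 times lower (95% counting interval 1.66 to 1.92), which does not reach the 2-fold threshold in the study's methods. With that threshold and an unadjusted p under 0.01 from edgeR's test, in place of the study's own per-gene test, 9.6% of the tested genes were lower and 3.8% higher. No member was called, but PCDHGC3 was the only member tested. In an edgeR fit without a filter on low counts PCDHGA8 (log2 fold change -4.65, unadjusted p = 6.6e-10) and PCDHGA12 (-4.66, unadjusted p = 3.2e-06) met both thresholds. PCDHGC3 was a gene of middle to high level here, with 3401 tested genes above it in mean CPM.

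PCDHGC3 was the only member that passed the filter on low counts, and it was called lower. Of all 12514 genes tested 51.0% were called at an adjusted p under 0.05, 26.0% lower and 25.0% higher, so a call is common in this comparison. The size of the decrease was less common, as 11.9% of the tested genes had a lower log2 fold change than PCDHGC3. With no filter on low counts 29 members could be fitted, and 5 of them were called lower and 0 higher: PCDHGC3, PCDHGA8, PCDHGA12, PCDHGB6 and PCDHGB7. In that fit 37.8% of 19169 symbols were called and 18.6% were lower. It gave PCDHGC3 an edgeR adjusted p of 3.4e-15, against 3.9e-06 with the filter, so the p-values of these fits are not alike. PCDHGB7 overlapped between the lines and was called in only 1 of the 6 fits that left a library out. Since how reads in the shared exons were counted is not known, the value of PCDHGC3 cannot be told apart from the sum of all gamma transcripts that use those exons. These are bulk libraries, in which fewer cells with a transcript and less RNA per cell cannot be told apart.

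The share of PCDHGC3 in the counts differed between the lines. It took 90.1%, 90.0% and 87.3% of all member counts in the 1CT libraries and 93.7%, 94.9% and 96.8% in the 1CT-A libraries, without overlap. The means were 89.1 ± 1.56% and 95.1 ± 1.55% (SD, n = 3 each, two-sided exact permutation p = 0.1, the smallest that 3 against 3 libraries can give). Within the gamma cluster alone the share was 92.5 ± 1.54% in 1CT and 96.8 ± 1.28% in 1CT-A. The 2 library ranges within the gamma cluster, 90.7% to 93.4% and 95.9% to 98.3%, did not overlap either. The other members together thus had a larger ratio between the lines than PCDHGC3.

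**Figure D2:**
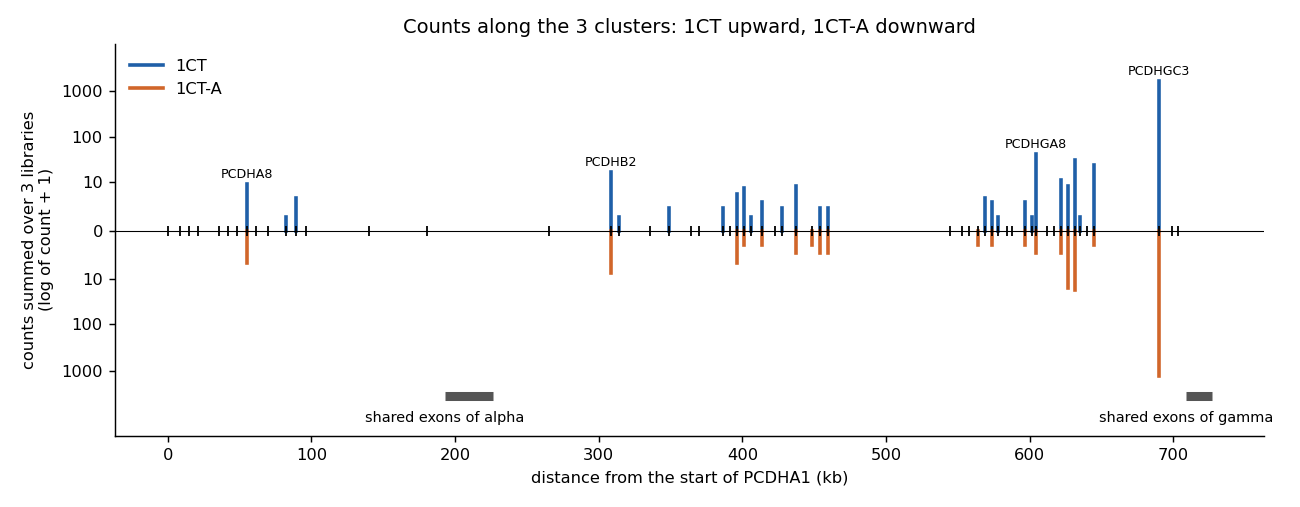
Counts of each member summed over the 3 libraries of a line, on a logarithmic axis of the count plus 1, against the distance of its annotated start from that of PCDHA1; 1CT points up, 1CT-A points down, ticks mark all 57 members and grey bars the shared exons. Counts gather at PCDHGC3 near the end of the gamma cluster, and all other members are far lower; PCDHA8, PCDHB2 and PCDHGA8 are named for orientation.

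The gamma A and gamma B genes, the members of the gamma cluster that are used in a random choice in neurons, had at most 19 counts in a library. Of these genes 3 (PCDHGA8, PCDHGA12 and PCDHGB6) were lower in 1CT-A without overlap of the libraries. Over all symbols with 1 to 50 counts in the 6 libraries 15.1% were lower without overlap and 2.82% higher. PCDHGA8 had 19, 17 and 7 counts in 1CT and 0, 2 and 0 in 1CT-A. All 3 libraries of 1CT were above all 3 of 1CT-A. Its 43 counts against 2 gave a level 30.8 times lower in 1CT-A, with a 95% counting interval of 8.03 to 263. PCDHGA12, named here after its values were seen, was alike, with 5, 7 and 13 counts against 0, 0 and 1. That is 25 counts against 1, a ratio of 35.8 with an interval of 5.87 to 1471, so that its upper end is hardly bounded. In both genes the groups did not overlap.

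PCDHGB7 differed more between libraries of one line than between the lines. It had 16, 0 and 16 counts in 1CT and 10, 8 and 0 in 1CT-A. The second library of 1CT and the third of 1CT-A were at 0 although the other libraries of the same line had 8 to 16 counts. The exact 95% Poisson interval of 16 counts is 9.15 to 26.0, above the 3 counts that a count of 0 allows, so this spread is wider than counting error. The groups overlapped, and the ratio of the summed counts was 2.55 with a counting interval of 1.39 to 4.82 that leaves out this spread.

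PCDHGA10, named after its values were seen, was the 1 member counted in both lines whose level was higher in 1CT-A. Its counts were 1, 6 and 1 in 1CT and 6, 4 and 6 in 1CT-A, a ratio of 1.40 with an interval of 0.563 to 3.77, and the groups overlapped. PCDHGB6, also named afterwards, had 1, 2 and 8 counts against 1, 1 and 0. The other gamma members stayed at 3 counts or fewer: PCDHGA7 (0, 3, 0 against 0, 0, 1), PCDHGA4 (0, 1, 3 against 0 in all), PCDHGB2 (0, 1, 2 against 0, 0, 1), and PCDHGA5, PCDHGA11 and PCDHGB4 with 1 count each in 1CT. No statement on the direction of these single genes can rest on such counts.

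Summed over the 12 gamma A genes, the counts were 25, 35 and 25 in 1CT and 6, 6 and 8 in 1CT-A. Their summed level was 3.46 ± 0.671 CPM against 0.566 ± 0.0595 CPM (SD, n = 3 each), 6.09 times lower in 1CT-A (counting interval 3.71 to 10.5, two-sided exact permutation p = 0.1). The 8 gamma B genes had 17, 4 and 26 counts against 12, 9 and 1. Here the libraries overlapped, the summed level was 1.94 ± 1.43 CPM against 0.648 ± 0.513 CPM, and the exact permutation p was 0.3. The whole gamma cluster without PCDHGC3 had 42, 39 and 51 counts against 18, 15 and 9, or 5.41 ± 0.995 CPM against 1.21 ± 0.458 CPM. This was 4.51 times lower, with a counting interval of 3.16 to 6.54 that does not reach the interval of PCDHGC3.

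The beta genes are read without the difficulty of shared exons. PCDHB2 was the highest of them and the only one counted in every library, with 5, 6 and 6 counts in 1CT and 3, 1 and 3 in 1CT-A. All 1CT libraries were above the 1CT-A libraries, and the level was 3.48 times lower (counting interval 1.37 to 9.93). PCDHB14 had 5, 2 and 1 counts against 2, 0 and 0, and its groups overlapped. PCDHB16 had 1, 1 and 3 counts against 1, 0 and 3, with overlap as well. PCDHB9, named after its values were seen, had 1, 3 and 3 counts against 1, 0 and 0. The remaining beta members with counts (PCDHB3, PCDHB5, PCDHB7, PCDHB10, PCDHB11, PCDHB13, PCDHB15 and the pseudogenes PCDHB18P and PCDHB19P) had at most 2 counts in a library.

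Summed over its 19 members, the beta cluster had 18, 18 and 16 counts in 1CT and 9, 4 and 7 in 1CT-A. The summed level was 2.12 ± 0.0602 CPM against 0.571 ± 0.228 CPM, 3.73 times lower in 1CT-A (counting interval 2.19 to 6.59, exact permutation p = 0.1, n = 3 each). Of the 13 beta members with a count, 3 (PCDHB2, PCDHB9 and PCDHB11) were lower without overlap of the libraries and 0 were higher. Over all symbols with a count 23.2% were lower without overlap and 21.8% higher, so the share lower is near that background. For symbols with 1 to 50 counts over the 6 libraries these shares were 15.1% and 2.82%.

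The alpha cluster had at most 5 counts in any library. PCDHA8 had 3, 3 and 3 counts in 1CT and 1, 2 and 1 in 1CT-A, PCDHA12 had 0, 2 and 2 against none, and PCDHA11 had a single count in 1CT. The ratio of PCDHA8 was 3.23 with a counting interval of 0.900 to 14.3, which includes no difference. The cluster sum was 4, 5 and 5 counts against 1, 2 and 1, or 0.573 ± 0.0885 CPM against 0.115 ± 0.0528 CPM, 5.02 times lower (counting interval 1.58 to 20.9, exact permutation p = 0.1, n = 3 each). The alpha genes also end in shared exons, and no alpha symbol had more than 3 counts in a library. How reads in shared exons were counted is not known, so nothing on the source of the PCDHGC3 counts is read from this.

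**Figure D3:**
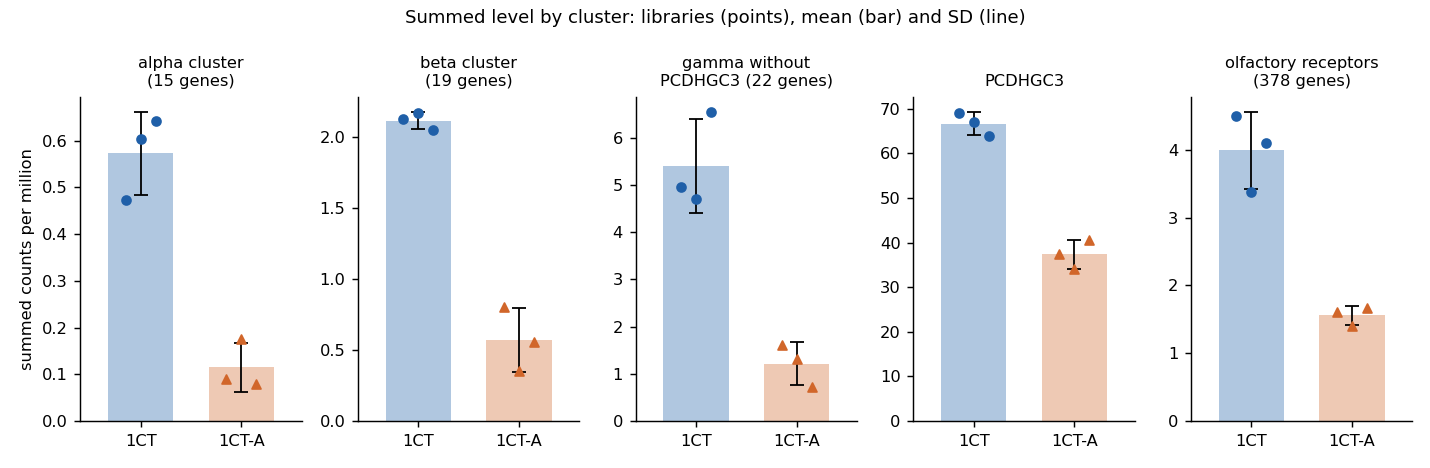
Summed CPM of the alpha cluster, the beta cluster, the gamma cluster without PCDHGC3, PCDHGC3 alone and, for comparison, the olfactory receptor genes; points are libraries, bars means and lines the SD of 3 libraries, and each panel has its own axis from 0. In all 5 panels every 1CT library lies above every 1CT-A library, and the olfactory receptors show the same order at 4.00 CPM against 1.56 CPM.

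Counted member by member, 8 of the 29 members with a count were lower in 1CT-A without overlap of the libraries (PCDHA8, PCDHB2, PCDHB9, PCDHB11, PCDHGA8, PCDHGA12, PCDHGB6 and PCDHGC3), and 0 were higher. Over all 19169 symbols with a count, 23.2% were lower without overlap and 21.8% were higher. The share lower is thus close to the background, while none higher was seen among the members. In PCDHB9, PCDHB11 and PCDHGB6 some libraries of both lines had the same count of 1, and only the larger totals of 1CT-A kept the groups apart. Among the 6598 symbols with 1 to 50 counts in all, which are as low as the members, 15.1% were lower and 2.82% higher without overlap. Of the 28 members in that range 7 (25.0%) were lower and 0 higher.

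The 6598 symbols with 1 to 50 counts summed to 1633 CPM in 1CT and 880 CPM in 1CT-A, 1.86 times lower, so the sum of other low genes was lower as well. These symbols were chosen by raw counts, and 1CT-A was deeper by a factor of 1.43, so genes higher in 1CT-A pass 50 counts sooner. The effect of this choice on the sums, and on the shares without overlap above, was not tested. The 378 olfactory receptor genes, the odour sensors of the nose, which serve here as a measure of counts on genes with no known use in such cells, summed to 4.00 ± 0.566 CPM against 1.56 ± 0.138 CPM, 2.55 times lower (counting interval 1.82 to 3.62). A wider list of 520 such genes had means of 38.4 and 10.4 CPM, but 76.0% of its counts were on the keratin-associated genes KRTAP2-3 and KRTAP1-5. The members without PCDHGC3 had 8.10 ± 0.991 and 1.90 ± 0.582 CPM, 4.30 times lower (3.24 to 5.77), an interval that overlaps with that of the olfactory receptors. The part of such a background in the counts of the low members was not tested. PCDHGC3 lies far above it.

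The sequence before the start sites was read from RefSeq promoters on GRCh38.p14 (250 bases before and 50 after the start), which held 47 of the 57 members. Clustered protocadherin promoters are known for a conserved element with the letters CGCT, near to which CTCF binds. CGCT or its reverse complement was found in 46 of the 47 member promoters (97.9%) and in 70.0% of 35116 promoters of all genes, so these 4 letters alone say little. Longer forms, chosen after the promoters were read, were rarer elsewhere: CGCTGT in 53.2% of the member promoters and 11.2% of all, and GTGGCGCT in 27.7% and 1.15%. Both contain CGCT, and both strands were searched. CGCTGT was in 17 of 20 gamma, 7 of 13 alpha and 1 of 14 beta promoters, and GTGGCGCT in 13 of 14 beta promoters and in no alpha or gamma promoter. Below are the promoters of PCDHGC3, of the unseen C-type neighbour PCDHGC4, and of the leading gamma A and beta members, with CGCT and its reverse complement AGCG in capitals.
PCDHGC3 promoter, plus strand, chr5:141475716-141476015: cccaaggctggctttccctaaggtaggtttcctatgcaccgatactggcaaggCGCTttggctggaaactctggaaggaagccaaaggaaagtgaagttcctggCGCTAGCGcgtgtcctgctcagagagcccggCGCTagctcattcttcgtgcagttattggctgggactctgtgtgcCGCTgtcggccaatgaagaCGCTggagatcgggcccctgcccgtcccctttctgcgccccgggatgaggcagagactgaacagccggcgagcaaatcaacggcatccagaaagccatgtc
PCDHGC4 promoter, plus strand, chr5:141484780-141485079: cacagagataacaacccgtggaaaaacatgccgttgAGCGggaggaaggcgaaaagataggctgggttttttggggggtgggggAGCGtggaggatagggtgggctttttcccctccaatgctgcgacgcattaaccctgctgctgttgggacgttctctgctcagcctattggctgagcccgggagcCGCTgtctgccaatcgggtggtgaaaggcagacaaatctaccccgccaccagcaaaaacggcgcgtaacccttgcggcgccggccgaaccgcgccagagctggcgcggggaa
PCDHGA8 promoter, plus strand, chr5:141392383-141392682: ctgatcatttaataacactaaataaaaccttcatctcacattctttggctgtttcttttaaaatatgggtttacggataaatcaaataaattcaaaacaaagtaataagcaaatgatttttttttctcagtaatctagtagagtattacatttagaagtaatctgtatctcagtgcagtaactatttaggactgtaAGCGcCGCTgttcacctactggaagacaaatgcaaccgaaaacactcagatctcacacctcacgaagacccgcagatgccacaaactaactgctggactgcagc
PCDHB2 promoter, plus strand, chr5:141094365-141094664: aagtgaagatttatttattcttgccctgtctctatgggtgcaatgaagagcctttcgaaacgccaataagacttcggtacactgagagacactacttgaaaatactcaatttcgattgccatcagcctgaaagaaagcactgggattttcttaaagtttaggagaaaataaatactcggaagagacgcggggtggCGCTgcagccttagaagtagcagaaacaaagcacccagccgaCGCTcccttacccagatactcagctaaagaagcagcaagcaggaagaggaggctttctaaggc
The PCDHGC3 promoter held 6 such matches, PCDHGC4 3, and PCDHGA8 and PCDHB2 2 each. PCDHGC3 and PCDHGC4 had promoters of 59.0% and 60.7% G and C, PCDHB2 of 45.3% and PCDHGA8 of 36.0%. The matches are letters in a window and not bound sites, and nothing on the use of a promoter is read from them.

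Of 32 listed 5q31 neighbours of the clusters 24 were tested, and 14 were called lower in 1CT-A, 0 higher and 10 were not called, where 26.0% of all genes tested were lower and 25.0% higher. They had a median log2 fold change of -0.39 against -0.01 over all genes tested. TAF7, a subunit of the general transcription factor TFIID that lies between the beta and gamma clusters, had 768, 669 and 563 counts in 1CT and 629, 634 and 765 in 1CT-A (log2 fold change -0.54, SE 0.09, edgeR adjusted p = 3.1e-04). DIAPH1, a formin that builds actin filaments, lies 2040 bases beyond the end of PCDHGC5 and had a log2 fold change of -0.40 (SE 0.07). HDAC3, a histone deacetylase next to it, was not called (-0.10, SE 0.08). Among the largest decreases were APBB3, a binding partner of the amyloid precursor protein (-1.32, SE 0.45, on 4 to 21 counts a library, a call lost when 1CT replicate 2, 1CT replicate 3 or 1CT-A replicate 3 was left out, with adjusted p of 0.108, 0.056 and 0.112 in edgeR), and FGF1, a fibroblast growth factor (-0.95, SE 0.18). RELL2 and FCHSD1 (-1.28 each) overlap by 1763 bases on opposite strands and had nearly the same counts, so that they cannot be taken as separate genes here.

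Along chromosome 5 the stretch beyond PRR16, which includes the clusters, had more genes called lower than higher. Among genes of at least 10 CPM, the 174 from the start of the chromosome to PRR16 had a median log2 fold change of 0.17, with 72 called higher and 30 lower. The 194 genes beyond PRR16, without the members, had a median of -0.27, with 23 higher and 95 lower (49.0% lower, against 23.5% of all 8223 genes at that level). The border at PRR16 was chosen with earlier results of these data known. The 20 genes before and the 20 after the start of the clusters, without the members, had a median of -0.39, with 3 higher and 23 lower. TAF7, which lies before PCDHGC3, is in the second 20. HARS (-0.58) and KIAA0141 (-0.68), listed neighbours called lower, are missing from these 40, as their symbols had no matched position on this chromosome. The medians of the 22 other chromosomes, each taken whole, ran from -0.01 to 0.17. No part of another chromosome was chosen in the way of the stretch beyond PRR16, so these medians are not a like comparison for it. The value of PCDHGC3 was lower than the median of the 194 genes by a log2 difference of -0.60. Against the median of the 40 genes around the start of the clusters the difference was -0.48, and 9 of those 40 were lower still. Copy number was not measured in these libraries, and its part in these values was not tested.

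**Figure D4:**
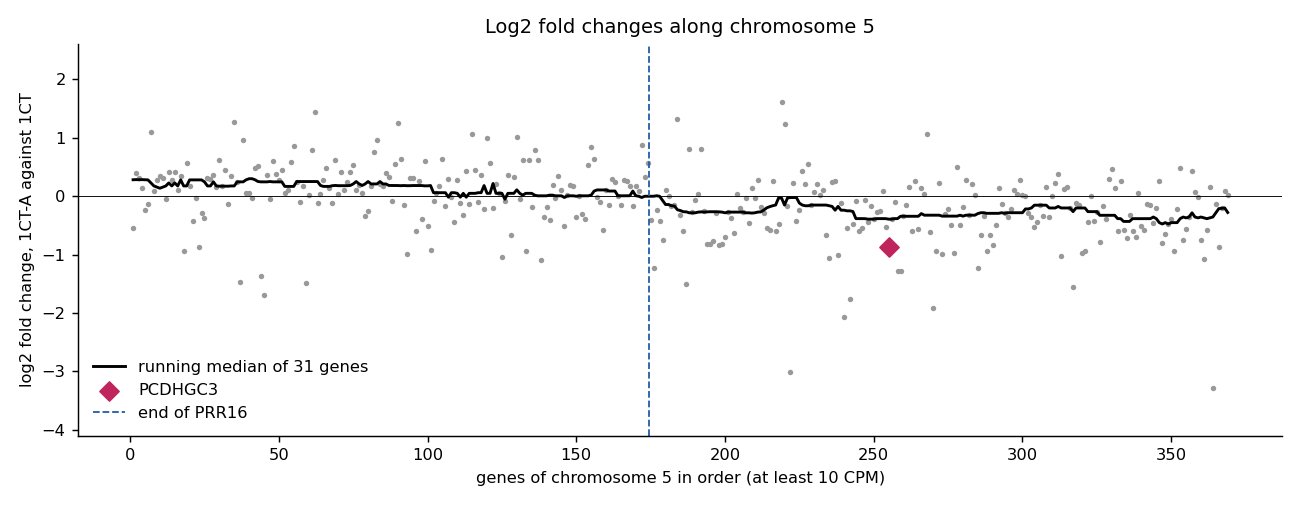
Log2 fold change in 1CT-A, relative to 1CT, for genes of at least 10 CPM whose symbols were matched to chromosome 5, in gene order. The line is a running median of 31 genes, the diamond PCDHGC3 and the dashed line the end of PRR16. The running median lies near or above 0 before PRR16 and mostly below 0 after it, and PCDHGC3 lies at -0.87, below the line.

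Of the factors that choose and fold protocadherin promoters, 18 of 26 were called higher, 2 lower and 6 were not called, where 25.0% of all genes tested were called higher and 26.0% lower. The median log2 fold change of the list was 0.37, against -0.01 over all genes. CTCF, the zinc finger protein that binds member promoters and their enhancers, had 682, 579 and 593 counts in 1CT and 1466, 1341 and 1561 in 1CT-A (log2 fold change 0.68, SE 0.08). RAD21, a cohesin subunit, rose by 0.62 (SE 0.09), and PDS5B, a regulator of cohesin, by 0.77 (SE 0.12). SMCHD1, a chromatin protein known to keep clustered protocadherin genes silent, rose by 0.67 (SE 0.14). Among enzymes of DNA methylation, DNMT1, which maintains it, rose by 0.90 (SE 0.06), and TET1 and TET3, which oxidise methylated cytosine, rose by 1.62 (SE 0.32) and 1.02 (SE 0.25). DNMT3B, which is known to methylate member promoters, was low in both lines and not called (-0.26, SE 0.33, edgeR adjusted p = 0.54). DNMT3A, the other de novo methyltransferase, and REST, a repressor of neuronal genes, fell by 0.63 (SE 0.14) and 0.65 (SE 0.10). These 2 were the only genes of the list called lower.

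Protocadherins outside the clusters and other large cadherins showed no common direction. Of 24 listed 8 were tested, of which 3 were called higher and 4 lower (87.5% called). Over all genes tested 51.0% were called, 25.0% higher and 26.0% lower. DCHS1, a giant cadherin that acts as the ligand of FAT4, had 9, 13 and 12 counts in 1CT and 1, 4 and 2 in 1CT-A, a log2 fold change of -2.76 (SE 0.51). PCDH10 was lower by a log2 fold change of -1.97 (SE 0.47), on 38 counts against 14 over the 3 libraries of each line. PCDH18 rose by 1.63 (SE 0.24), from 24.4 ± 13.1 to 75.7 ± 6.21 TMM-normalized CPM (SD, n = 3 each), and CELSR3, a seven-pass cadherin of planar cell polarity, rose by 1.11 (SE 0.33). PCDH1 and PCDH12, which lie on the same chromosome arm beyond the gamma cluster, did not pass the filter. PCDH1 had 8, 4 and 6 counts against 0 in all 3 libraries of 1CT-A, and PCDH12 had 16, 8 and 17 against 2, 1 and 2, and in neither gene did the libraries of the lines overlap. PCDH7, a nonclustered protocadherin, was among those called lower (-0.38, SE 0.09).

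The last list held 19 proteins known to bind the cytoplasmic tails of the clustered protocadherins or to act below them. Of these 18 were tested, and 7 were lower, 1 higher and 10 not called (44.4% called, against 51.0% of all genes), with a median log2 fold change of -0.11. PTK2B, the PYK2 kinase that the tails of alpha and gamma proteins hold back, had 87, 74 and 79 counts in 1CT and 6, 17 and 12 in 1CT-A, a log2 fold change of -3.32 (SE 0.27). PTK2, the related focal adhesion kinase, was lower by a log2 fold change of -0.41 (SE 0.10). CYFIP2, a subunit of the WAVE complex that drives actin branching, had 37, 28 and 32 counts against 5, 2 and 14 (-2.75, SE 0.42). FYN, a Src family kinase, fell by 0.81 (SE 0.12). ADAM10, the protease that sheds protocadherin ectodomains, was the 1 gene of the list called higher (0.63, SE 0.11).

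**Figure D5:**
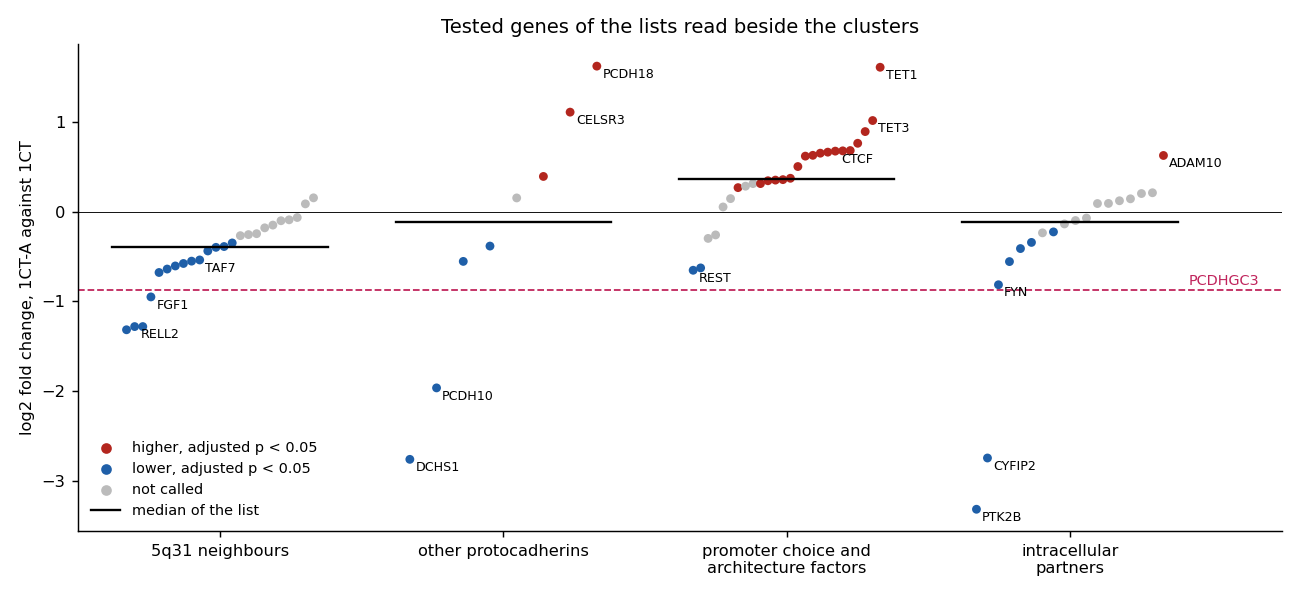
Log2 fold changes in 1CT-A, relative to 1CT, for the tested genes of 4 lists, each list sorted from low to high; red points were called higher and blue points lower at an adjusted p under 0.05, grey points were not called, black lines are list medians and the dashed line is PCDHGC3 at -0.87. The 5q31 neighbours have only blue and grey points, while the promoter choice and architecture factors are mostly red.

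The cells carried few marks of the tissue in their label. Of 5 epithelial markers, EPCAM was at 0 in all libraries and only KRT18 was above 3 counts in every library. KRT19 had 20, 27 and 34 counts in 1CT and 0 in 1CT-A. KRT8 had 4, 4 and 14 counts in 1CT and 0, 2 and 8 in 1CT-A, and CDH1 had 4, 3 and 3 against 0, 0 and 3. The summed epithelial level in CPM was 13.3 to 17.3 (1CT) and 3.23 to 7.20 (1CT-A). Of 5 colon markers, CDX1 and VIL1 were at 0 and CDX2, LGR5 and CDH17 had at most 1 count in a library. LGR5 is read in the study as a stemness marker and not as a mark of colonocytes. All 8 mesenchymal markers were above 3 counts in every library, with sums of 4688 to 5701 CPM (1CT) and 4348 to 4646 CPM (1CT-A). They did not move together. COL3A1 had means of 47.8 CPM in 1CT and 253 CPM in 1CT-A, DCN 70.6 and 89.4, and CDH2 49.8 and 63.0. VIM, COL1A1, COL1A2, THY1 and PDGFRB had lower means in 1CT-A, with COL1A1 at 1894 and 1296 CPM. Of 6 neuronal markers, SYT1, TUBB3 and MAP2 were above 3 counts in every library, RBFOX3 and STMN2 had at most 1 count, and SNAP25 had 15, 16 and 7 counts in 1CT and 0 in 1CT-A. The summed neuronal level was 732 to 755 CPM (1CT) and 328 to 329 CPM (1CT-A), mostly MAP2. TUBB3, the next highest, had means of 111 CPM (1CT) and 98.5 CPM (1CT-A). Of 5 blood markers, PTPRC, CD3E and HBB were at 0 and CD68 carried nearly all of the 10.9 to 14.4 and 8.49 to 10.1 CPM. The epithelial, mesenchymal, neuronal and blood sums were each lower in 1CT-A without overlap of the libraries, so the neuronal sum did not stand apart in direction. The sums of the colon markers, near 0, overlapped. The part of these differences in the levels of the members was not tested.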

How the data were processed

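Per the labels, QuantSeq 3′ libraries were made from 500 ng of total RNA for 3 samples each of 1CT and 1CT-A. The deposited files hold raw counts per gene symbol, made by the authors without normalization. The submitters' processing notes name Bowtie2, edgeR and hg19, without roles or versions. The counting tool, annotation, use of strand and treatment of reads with several matches are not given in the sources used here. Counts of the 286 symbols entered repeatedly were added, and no member was among them.

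The members and lists were chosen with earlier results of these data known. All symbols were fitted with edgeR 4.0.16 in R 4.3.3 (TMM factors, filterByExpr with a minimum count of 10, quasi-likelihood test, no block), and p was adjusted over 12514 genes by Benjamini-Hochberg; genes were called under 0.05. The fit was tested on simulated data. DESeq2 1.42.0 and limma-voom (limma 3.58.1) were alternatives. Summed levels were compared by exact two-sided permutation (scipy 1.17.1). Ratios of summed counts carry exact 95% intervals from the binomial distribution, scaled to summed totals. Named genes were the 3 highest members of each cluster, members called, the C-type members, and in each list up to 4 called genes with the largest change, plus APC, CTCF, RAD21, SMCHD1 and DNMT3B; TAF7, DIAPH1, HDAC3, DNMT3A, REST, PTK2, PCDH1, PCDH7 and PCDH12 were added after values were seen, as were the members so described. The files hold no authors' comparisons.

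Positions came from GENCODE 44 and RefSeq on GRCh38, by symbol. No hg19 genome was used, and 92.2% of tested symbols were matched.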

Additional observations from a re-analysis of the deposited data

How the results depend on the processing

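The decrease of PCDHGC3 kept its direction and its call in all 14 alternatives (log2 fold change -0.93 to -0.80, largest edgeR, DESeq2 or limma-voom adjusted p 7.7e-05), and the cluster sums kept theirs. Without PCDHGC3 the gamma sum had a log2 ratio of -2.15, and without PCDHA8 the alpha sum gave no value, since 1CT-A was then at 0. The count of members called, 1, moved with the filter: 5 without a filter and 2 to 3 when a library was left out, because the filter then asks for fewer libraries and 3 members were tested. PCDHGA8 was called lower in all 6 of these fits, and PCDHGB7 only without 1CT replicate 2, its library at 0 (log2 fold change -1.95, adjusted p = 0.026). The study's thresholds (2-fold, unadjusted p under 0.01) were applied to edgeR's p and not to the study's own per-gene test. By them 0 members were called, with PCDHGC3 as the only member tested. The counts of called genes were 2 instead of 14 for the 5q31 neighbours, 4 instead of 7 for other protocadherins and 2 instead of 20 for promoter factors. They were 2 instead of 8 for intracellular partners and 1676 instead of 6388 for all genes (475 higher and 1201 lower). With at least 10 counts in every library 4 other protocadherins were called. With a library left out these counts were 13 to 16, 7 to 9, 15 to 19, 6 to 9 and 5364 to 6551. APBB3 lost its call without 1CT replicate 2 (adjusted p = 0.108), without 1CT replicate 3 (0.056) or without 1CT-A replicate 3 (0.112), and CELSR3 without 1CT replicate 1 (0.0598). With library sizes alone 3450 genes were higher and 3014 lower, against 3131 and 3257. When the replicate number entered as a block, PCDHGC3 was at -0.88 (edgeR adjusted p = 7.3e-06) and 6091 genes were called. Of these genes 6000 were also called without the block. Libraries with the same number in both lines correlated at -0.16, 0.22 and -0.14 over 8223 genes. These few values, of mixed sign, cannot decide whether libraries with the same number share more than the number. Low counts limit most members: for the 21 with counts but never more than 3 in a library, a change of the single gene was not detectable. The part of depth and of the treatment of reads in shared exons in these low counts was not tested.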
